A study of Mus musculus with 12 samples.

Results

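The 10 genes described here, Mtmr2, Sbf1, Sbf2, Fig4, Sh3tc2, Litaf, Ndrg1, Fgd4, Arhgef10 and Gdap1, are genes of demyelinating Charcot-Marie-Tooth disease whose products are not structural proteins of compact myelin. They were taken by gene symbol from the 25700 mouse genes of the count table, and all 10 were found and passed the filter on low counts that 18597 genes passed. The RNA came from Schwann cells (SCs) of sciatic nerves of P5 mice with the genotype P0Cre-/+ : ReYFP Tg/+ : βAct-DsRed Tg/+, in which P0Cre switches on eYFP in SCs and dsRed is expressed in all cells. eYFP-positive cells were sorted through 3 gates: mSC (high side scatter, taken to hold more of the myelinating SCs), nmSC (low side scatter, taken to hold more of the SCs not yet forming myelin) and allSC (both clouds of cells). Each gate had 4 libraries, numbered 1 to 4 after the mouse whose cell suspension was sorted, and no gate is a pure cell type. All mice carried the same 3 alleles and were untreated, so the gates were compared within 1 genotype. By the paper, each gate held as many samples from female as from male mice.

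Charcot-Marie-Tooth disease is an inherited neuropathy, and its demyelinating forms start in the myelinating SC. The best known of them arise from proteins of the myelin sheath itself, such as Pmp22. The genes treated here act instead in the traffic of membrane inside the cell, in the signalling that shapes its actin skeleton, and in its mitochondria. Mtmr2 and Fig4 encode phosphatases of phosphoinositides, the lipids that label endosomes, and Sbf1 and Sbf2 encode partners of Mtmr2. Sh3tc2 and Litaf encode proteins of endosomes, Ndrg1 a cytoplasmic protein linked to the sorting of membrane receptors, Fgd4 and Arhgef10 exchange factors that load small GTPases with GTP, and Gdap1 a protein of the outer mitochondrial membrane.

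The libraries held between 8180927 and 16918122 counts. Values are given as counts scaled to the depth of the library (CPM) after scaling of the libraries by TMM, a method that sets most genes of a pair of libraries to no change, and differences were tested with the quasi-likelihood test of edgeR and Benjamini-Hochberg adjustment over all tested genes. The sort was visible in its markers. Mbp averaged 51943 CPM in mSC and 5647 CPM in nmSC, while Mki67, a gene of cycling cells, averaged 19.95 CPM in mSC and 227 CPM in nmSC. Sox10, the transcription factor that defines the SC lineage, was at 267 CPM in mSC and 266 CPM in nmSC. In the libraries of these 2 gates, summed endothelial markers ranged from 3.34 to 11.1 CPM and summed immune markers from 6.08 to 18.5 CPM, against 3025 to 6320 CPM for the summed markers of the SC lineage. The summed fibroblast list was higher, at 438 to 1035 CPM in mSC and 2925 to 4104 CPM in nmSC, and 1 of its 6 genes, Col1a1, carried almost all of it, with a mean of 786 CPM in mSC and 3420 CPM in nmSC. In RNA of sorted pools, fewer cells of a type and less RNA per cell cannot be told apart.

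The library that differed most from the others of its gate was mSC replicate 4. Over 9392 genes the log2 difference between a library and the mean of the other libraries of its gate had an SD of 0.58 for mSC replicate 4, of 0.45 for mSC replicate 1 and of 0.17 to 0.34 for the other 10 libraries. Both mSC libraries had a trend with the length of the longest transcript, with a Spearman correlation of -0.55 for mSC replicate 4 and 0.57 for mSC replicate 1, and nmSC replicates 3 and 4 had one with GC content, at 0.47 and -0.47. Results that rest on mSC replicate 4 are given with and without it. The part that length or GC content played in any difference of a single gene was not tested.

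The 10 genes spanned a wide range of expression. Per kilobase of the union of their exons (RPKM, from the TMM-scaled CPM), Ndrg1 had the highest level in every gate, with 578 ± 37.7 in mSC, 336 ± 28.9 in allSC and 119 ± 20.9 in nmSC (SD, n = 4 in each). In mSC it was followed by Mtmr2 at 88.3 ± 6.08, Litaf at 57.4 ± 8.34 and Sh3tc2 at 44.1 ± 16.2 RPKM. The levels of Litaf and Sh3tc2 overlapped between libraries in mSC, as did those of each neighbouring pair from Fig4 (17.7 RPKM) through Arhgef10 (17.1), Sbf2 (9.98) and Sbf1 (8.79) to Fgd4 (5.50). Gdap1 was the lowest in every gate, with 0.294 ± 0.0986 RPKM in mSC and 0.448 ± 0.0513 RPKM in nmSC. Its reads per library numbered only 21 to 55, so that a change of moderate size in Gdap1 was difficult to detect. In nmSC the order differed from that in mSC at 3 places. Litaf (55.6 RPKM) stood before Mtmr2 (46.0 RPKM), although their libraries overlapped, Sbf1 (10.5 RPKM) stood before Arhgef10 (9.89 RPKM), also with overlap, and Sbf2 had moved below Fgd4, at 4.61 and 4.89 RPKM, again with overlap. Ranks in the middle of the order depend on which exons are counted, since Sbf2 and Fgd4 have union lengths of 14783 and 17517 bases and longest transcripts of 7154 and 8342 bases.

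**Figure D1:**
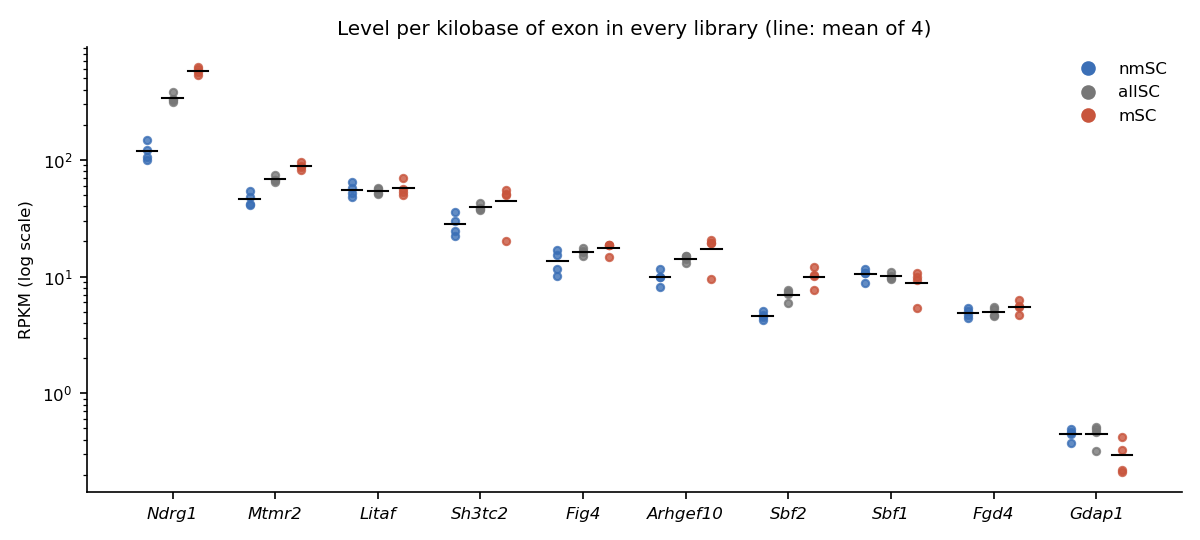
Level of each gene in RPKM (TMM-scaled CPM per kilobase of exon, log axis) for the 4 libraries of each gate, with a line at the mean, ordered by the mSC mean. Ndrg1 is the highest gene and Gdap1 the lowest in every gate, and 1 mSC library lies below the others for Sh3tc2, Arhgef10 and Sbf1.

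Compared with nmSC, mSC was higher in 5 of the 10 genes and lower in none. These were Ndrg1, Sbf2, Mtmr2, Arhgef10 and Sh3tc2. Over all tested genes, 20.4% were called higher in mSC and 20.1% lower. The median log2 fold change of the 10 genes was 0.52, against -0.16 for all tested genes, and 8 of the 10 lay above that median, with Sbf1 and Gdap1 below it. The libraries of mSC and nmSC did not overlap for Ndrg1, Sbf2 and Mtmr2, with mSC higher in each, where 16.8% of all tested genes showed such a separation in this direction.

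**Figure D2:**
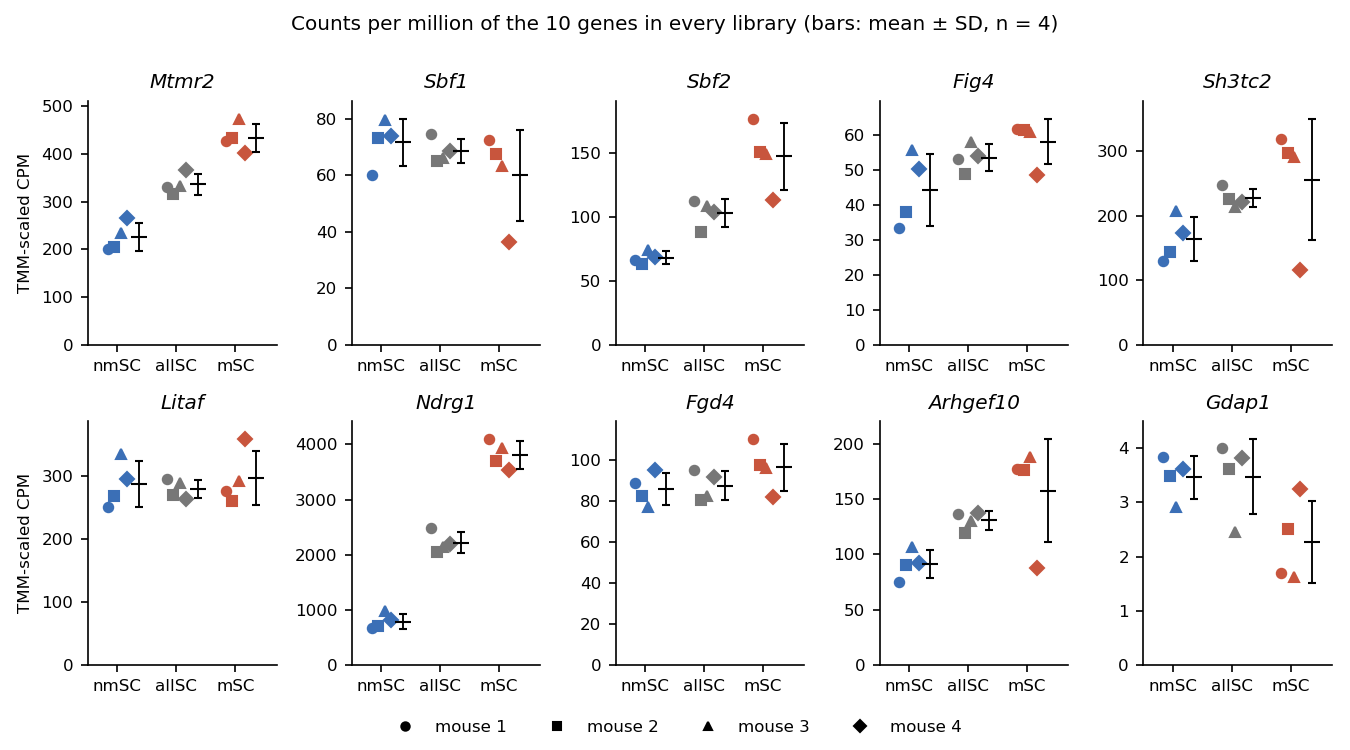
TMM-scaled CPM of each gene in the 4 libraries of each gate (marker shape: mouse), with mean ± SD beside them, all axes starting at 0. Mtmr2, Sbf2 and Ndrg1 rise from nmSC through allSC to mSC without overlap between the outer gates, whereas the mSC library of mouse 4 lies far below its gate for Sh3tc2, Arhgef10 and Sbf1.

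Of the 4 phosphoinositide genes, Mtmr2 and Sbf2 rose and Sbf1 and Fig4 were not called. Mtmr2 (chromosome 9, 13748410 to 13806481, plus strand, GRCm38) encodes a phosphatase that removes a phosphate from phosphoinositides of endosomes. Sbf1 (chromosome 15, 89288236 to 89315311, minus strand) and Sbf2 (chromosome 7, 110308013 to 110614922, minus strand) encode large relatives of Mtmr2 that bind it and lack the catalytic residues. That difference is legible in the coding sequence. The lines below hold the 27 bases of 1 coding exon that span the catalytic loop of Mtmr2, and the aligned bases of Sbf1 and Sbf2, from the GENCODE M21 transcripts on GRCm38, in the direction of transcription. Capitals mark the codons of the catalytic cysteine and arginine of Mtmr2 (codons 417 and 423 of 643) and the codons aligned with them (1421 and 1427 of 1867 in Sbf1, 1433 and 1439 of 1872 in Sbf2).
Mtmr2, chr9:13799942-13799968, plus strand: cacTGCagtgatggatgggatCGCaca
Sbf1, chr15:89294409-89294435, minus strand: agcCTGgaggacggctgggacATCacc
Sbf2, chr7:110330616-110330642, minus strand: tgtTTAgaagaaggctgggacATCact
Both partners carry codons of other amino acids at the marked places, and over their whole length the Sbf1 and Sbf2 proteins were identical at 60.2% of 1827 aligned residues.

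Mtmr2 was at 427, 434, 473 and 401 CPM in mSC replicates 1 to 4, at 332, 315, 332 and 366 CPM in allSC, and at 200, 204, 235 and 265 CPM in nmSC. The 3 gates did not overlap, and the 4 libraries of mSC lay highest. The log2 fold change from nmSC to mSC was 0.94 ± 0.12 (SE, adjusted p = 3.0e-06, edgeR), a 1.92-fold difference. Sbf2 showed the same order of gates, with 177, 151, 149 and 113 CPM in mSC, 112, 87.9, 109 and 104 CPM in allSC and 66.5, 62.9, 74.5 and 68.8 CPM in nmSC. The difference was 1.11 on the log2 scale ± 0.14 (SE, adjusted p = 2.5e-06, edgeR), a 2.17-fold difference, and it held in all 4 same-numbered pairs. Sbf1, the closest relative of Sbf2, did not follow it. It was at 72.4, 67.5, 63.5 and 36.5 CPM in mSC and at 60.1, 73.2, 79.7 and 73.8 CPM in nmSC, and the gates overlapped. Its log2 fold change of -0.25 had a 95% interval from -0.59 to 0.08 (adjusted p = 0.23, edgeR), and without mSC replicate 4 it was -0.07.

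Fig4 (chromosome 10, 41188172 to 41303260, minus strand) encodes another phosphoinositide phosphatase, which works in a complex with the kinase Pikfyve and the scaffold Vac14. It was at 61.5, 61.4, 60.8 and 48.4 CPM in mSC and at 33.2, 37.9, 55.5 and 50.2 CPM in nmSC. The nmSC libraries were spread more widely than those of mSC, and the gates overlapped because of mSC replicate 4. The log2 fold change was 0.39 ± 0.16 (SE, adjusted p = 0.051, edgeR), just outside the threshold of 0.05, and without mSC replicate 4 it was 0.47 (adjusted p = 0.014, edgeR). With the mouse as a block it was 0.41 and passed (adjusted p = 0.048, edgeR).

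The 3 genes of endosomes and receptor traffic gave 3 different results. Ndrg1 (chromosome 15, 66929318 to 66969640, minus strand) had the largest difference of the 10 genes. It was at 4093, 3700, 3927 and 3528 CPM in mSC, at 2487, 2046, 2135 and 2198 CPM in allSC and at 663, 702, 971 and 807 CPM in nmSC. No gate overlapped another. The log2 fold change from nmSC to mSC was 2.28 ± 0.14 (SE, adjusted p = 9.4e-11, edgeR), a 4.85-fold difference. Ndrg1 shares 419 and 137 exonic bases with antisense genes on the opposite strand, which are not rows of the count table, and reads of both strands cannot be told apart with a kit that does not mark strand.

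Sh3tc2 (chromosome 18, 61953075 to 62024402, plus strand) encodes a protein of the recycling endosome that binds Rab11. It was at 319, 297, 292 and 116 CPM in mSC, at 247, 225, 214 and 222 CPM in allSC and at 130, 144, 208 and 174 CPM in nmSC. The mSC libraries of the other mice lay above every nmSC library, and mSC replicate 4 lay below all of them. The log2 fold change was 0.64 ± 0.22 (SE, adjusted p = 0.028, edgeR), and without mSC replicate 4 it was 0.89 (adjusted p = 8.6e-06, edgeR). The call did not hold in every fit that kept this library, since leaving out any of mSC replicates 1 to 3 or nmSC replicates 1 and 2, entering only the 2 gates (adjusted p = 0.066, edgeR), or adding the mouse as a block (log2 fold change 0.60, adjusted p = 0.053, edgeR) took it past the threshold.

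Litaf (chromosome 16, 10959275 to 11066157, minus strand) encodes a membrane protein of late endosomes that binds the ubiquitin ligase Nedd4. It was at 276, 260, 292 and 357 CPM in mSC and at 250, 267, 335 and 295 CPM in nmSC. The gates overlapped, and mSC replicate 4 was here the highest library of its gate. Its log2 fold change was 0.05, with a 95% interval from -0.20 to 0.30 (adjusted p = 0.79, edgeR). Litaf shares 95 exonic bases with Snn on the opposite strand, and Snn was itself higher in mSC, with a log2 fold change of 0.90 (adjusted p = 3.6e-04, edgeR).

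The genes of the 2 exchange factors differed from each other. Arhgef10 (chromosome 8, 14911663 to 15001085, plus strand) was at 177, 177, 188 and 87.9 CPM in mSC, at 137, 119, 130 and 138 CPM in allSC and at 75.4, 90.4, 107 and 92.0 CPM in nmSC. As for Sh3tc2, the other mSC libraries were far above nmSC. Unlike for Sh3tc2, mSC replicate 4 was within the nmSC range and not below it. From nmSC to mSC Arhgef10 rose by 0.79 ± 0.18 on the log2 scale (SE, adjusted p = 0.0020, edgeR), which is 1.73-fold. Without mSC replicate 4 the rise was 0.99 (adjusted p = 3.0e-07, edgeR). Fgd4 (chromosome 16, 16416917 to 16600549, minus strand), which encodes frabin, an exchange factor of Cdc42, was at 110, 97.5, 96.0 and 81.8 CPM in mSC and at 88.5, 82.2, 77.0 and 94.96 CPM in nmSC. The gates overlapped, and the log2 fold change of 0.17 had a 95% interval from -0.08 to 0.42 (adjusted p = 0.28, edgeR), so that a rise of 2-fold lies outside the interval.

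Gdap1 (chromosome 1, 17145362 to 17164271, plus strand), whose product takes part in the division of mitochondria, was the 1 gene lower in mSC than in nmSC in all 4 same-numbered pairs, but it was not called. It was at 1.70, 2.52, 1.63 and 3.24 CPM in mSC, from 21 to 29 reads, and at 3.84, 3.48, 2.91 and 3.62 CPM in nmSC, from 39 to 55 reads. The highest mSC library, replicate 4, lay within the nmSC range. The log2 fold change was -0.64, with a 95% interval from -1.18 to -0.09 (adjusted p = 0.076, edgeR), and without mSC replicate 4 it was -0.83 (adjusted p = 0.030, edgeR).

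Without mSC replicate 4, 6 of the 10 genes were thus called higher in mSC and 1 lower, where 20.3% and 19.6% of all tested genes were called in these directions. The library itself was 2.603-fold below the mean of the other mSC libraries for Sh3tc2, 2.06-fold for Arhgef10 and 1.86-fold for Sbf1. For Mtmr2 and Ndrg1 the same difference was 1.11-fold for each. The longest transcripts of Sh3tc2, Arhgef10 and Sbf1 have 4974, 5528 and 6190 bases, those of Mtmr2 and Ndrg1 3788 and 4049 bases, and that of Litaf, which was higher in this library than in the others, 2639 bases. Sbf2 and Fgd4, at 7154 and 8342 bases, were 1.40-fold and 1.24-fold below, and Fig4, at 3282 bases, 1.27-fold below. Gdap1, at 3949 bases, was higher in this library than in the mean of the others.

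The scaling of the libraries moved every difference by nearly the same amount. Myelin genes take up a large part of the mSC libraries, where the 50 genes with the most counts held 26.5% to 30.6% of all counts, against 16.9% to 17.6% in nmSC. Over all tested genes the median difference on the log2 scale was -0.16 with TMM, -0.10 with the size factors of DESeq2, -0.53 with total counts without these 50 genes and -0.73 with total counts alone. Ndrg1, Sbf2 and Mtmr2 were called higher in mSC in all 4. With the size factors of DESeq2, Fig4 joined the 5 genes called (0.45, adjusted p = 0.029, edgeR), while 22.6% of all tested genes were called higher and 17.7% lower. With total counts alone, Sh3tc2 (0.11) and Arhgef10 (0.25) were no longer called, and Fgd4 (-0.39), Litaf (-0.52), Sbf1 (-0.80) and Gdap1 (-1.21) were called lower, while 7.79% of all tested genes were called higher and 55.9% lower. With total counts without the 50 genes, 3 genes were called higher and 3 lower (Gdap1, Litaf and Sbf1), against 11.1% and 41.2% of all tested genes. Measured from the median of all tested genes, the positions barely moved. This follows by construction, because a change of scaling shifts every gene and the median by nearly the same amount. The 4 scalings are therefore not separate support for these positions. Ndrg1 lay 2.44 above it on the log2 scale with TMM, Sbf2 1.28, Mtmr2 1.10, Arhgef10 0.95, Sh3tc2 0.81, Fig4 0.55, Fgd4 0.33 and Litaf 0.21, Sbf1 lay at -0.09 and Gdap1 at -0.47, and 8 of the 10 lay above the median under each of the 4 scalings.

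**Figure D3:**
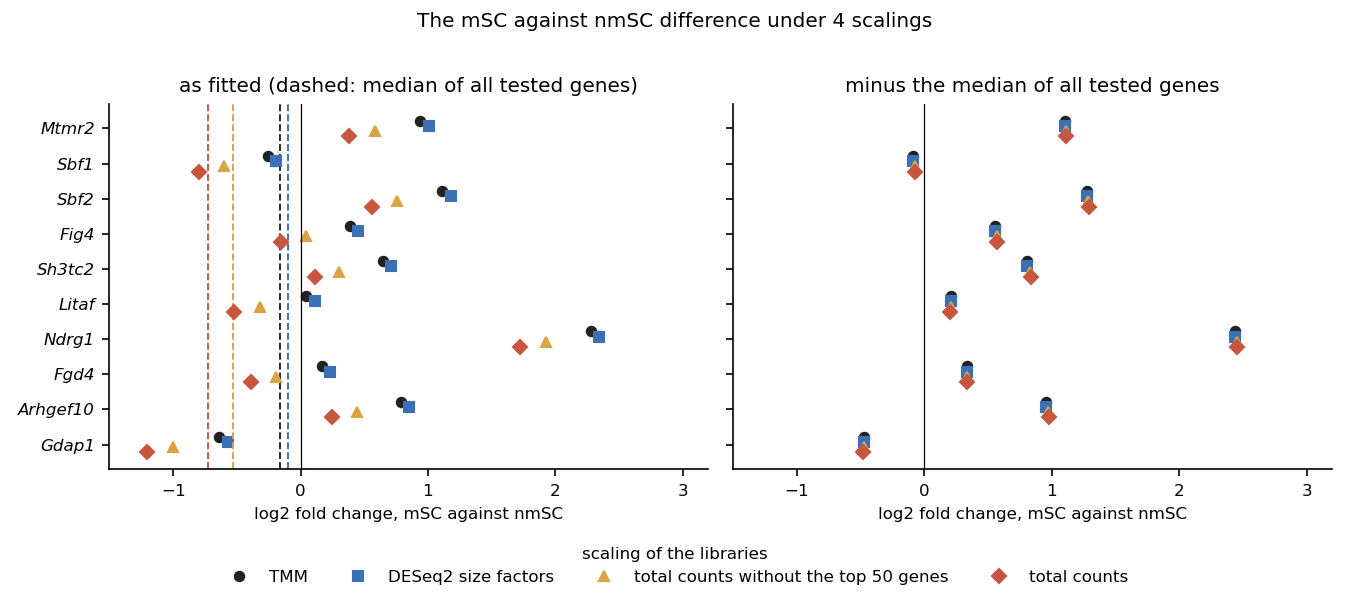
Log2 fold change of each gene between mSC and nmSC under 4 scalings of the libraries, as fitted (left, dashed lines at the median of all tested genes) and after that median was subtracted (right). The fitted values shift together with the median, from -0.16 with TMM to -0.73 with total counts. The distances from the median nearly coincide, by construction of the scalings.

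The allSC gate, which holds both clouds of cells, lay between the others for the genes that differed. Against allSC, mSC was higher in Ndrg1, Sbf2 and Mtmr2, with log2 fold changes of 0.78 ± 0.13 (SE, adjusted p = 2.5e-04, edgeR), 0.52 ± 0.14 (adjusted p = 0.013) and 0.37 ± 0.12 (adjusted p = 0.038), and no gene was lower. Of all tested genes 8.76% were higher and 8.80% lower in this comparison. Against nmSC, allSC was higher in the same 3 genes, with log2 fold changes of 1.497 ± 0.13 (SE, adjusted p = 1.3e-07, edgeR) for Ndrg1, 0.60 ± 0.14 (adjusted p = 0.0068) for Sbf2 and 0.57 ± 0.12 (adjusted p = 0.0029) for Mtmr2, where 7.55% of all tested genes were higher and 2.82% lower. The comparisons share libraries and are not independent of each other. Sh3tc2 and Arhgef10 had log2 fold changes of 0.47 (adjusted p = 0.23, edgeR) and 0.52 (adjusted p = 0.083) from nmSC to allSC, and neither was called. All 4 allSC libraries lay above the nmSC libraries for both genes, but how many of all tested genes were separated in this way was not counted. Without mSC replicate 4, mSC was higher than allSC in 5 genes, now with Arhgef10 at 0.49 (adjusted p = 0.0034, edgeR) and Sh3tc2 at 0.44 (adjusted p = 0.020), against 10.2% of all tested genes higher and 8.16% lower. With only the 2 gates in the fit, the calls of Sbf2 and Mtmr2 between mSC and allSC were lost (adjusted p = 0.053 for each, edgeR), as they were without allSC replicate 2 (adjusted p = 0.063 and 0.12) and with total counts, with or without the 50 top genes. Mtmr2 was also lost without allSC replicate 1 or 3 or mSC replicate 2 or 3, so that it was called between these gates in 8 of 16 settings and Sbf2 in 12 of 16, whereas Ndrg1 was called in all 16.

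**Figure D4:**
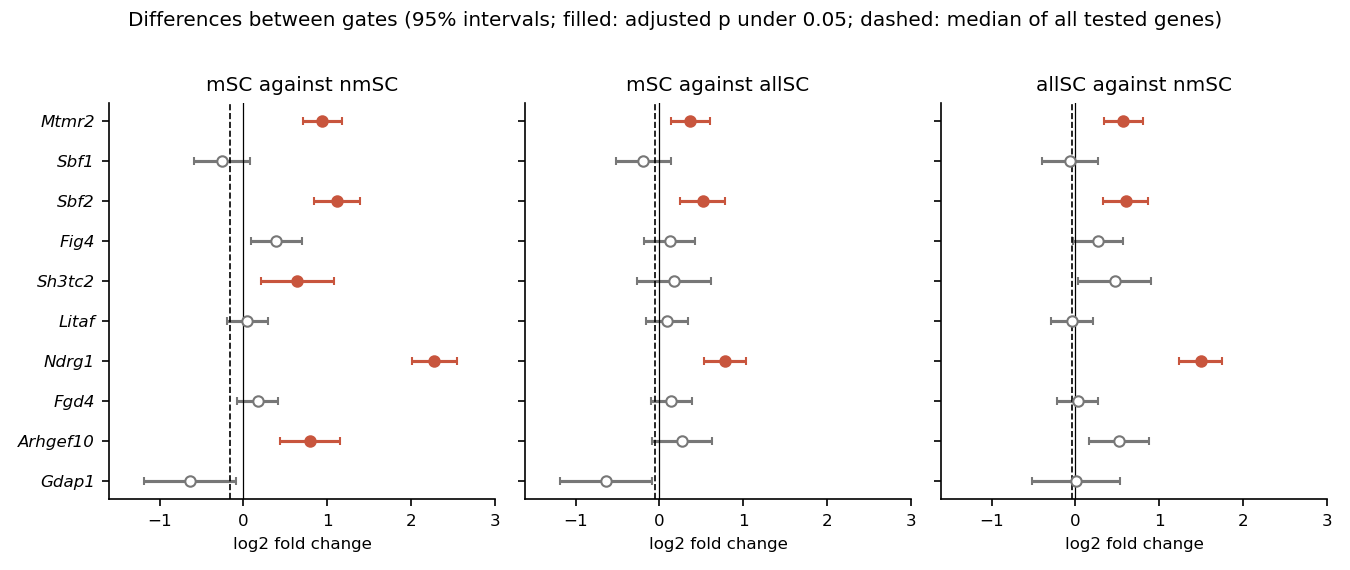
Log2 fold change with its 95% interval for each gene in the 3 comparisons of gates (filled: adjusted p under 0.05, dashed line: median of all tested genes). Ndrg1, Sbf2 and Mtmr2 are called in every comparison, and no gene is called lower in the first gate of a comparison.

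The place of allSC on the scale from the nmSC mean (0) to the mSC mean (1) was 0.53 for Mtmr2, 0.44 for Sbf2, 0.47 for Ndrg1, 0.60 for Arhgef10 and 0.69 for Sh3tc2, with a median of 0.53. Without mSC replicate 4 the place was 0.46 for Sh3tc2 and 0.44 for Arhgef10, and the median was 0.46. Mouse by mouse, Sh3tc2 gave 0.62, 0.53, 0.07 and -0.83 for mice 1 to 4. In mouse 4 both genes were lower in mSC than in nmSC (Sh3tc2 at 116 against 174 CPM, Arhgef10 at 87.9 against 92.0 CPM), which turns the scale over.

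Ratios of counts within 1 library do not depend on scaling, and they compare the reads of Mtmr2 with those of its partners. Trends with length or GC content can remain in them, and amounts of protein were not measured. They rest on the same counts as the tests of the single genes and are not separate support. For each read of Sbf1 there were 2.44, 2.24, 2.35 and 3.11 reads of Sbf2 in mSC, 1.51, 1.35, 1.64 and 1.51 in allSC and 1.11, 0.858, 0.934 and 0.931 in nmSC. The 3 gates did not overlap, and the mean was 2.53 ± 0.392 in mSC, 1.504 ± 0.118 in allSC and 0.958 ± 0.105 in nmSC (SD, n = 4). The difference between mSC and nmSC was 1.40 on the log2 scale (p = 0.0286 by a two-sided exact permutation test, which cannot give less with 4 libraries in each gate). Mtmr2 moved against Sbf1 in the same way, with 7.69 ± 2.29 reads for each read of Sbf1 in mSC, 4.91 ± 0.369 in allSC and 3.16 ± 0.363 in nmSC, a log2 difference of 1.25 between mSC and nmSC (exact permutation test, p = 0.0286). The ratio of Mtmr2 to Sbf2 was 3.00 ± 0.474 in mSC, 3.28 ± 0.323 in allSC and 3.32 ± 0.373 in nmSC, and its log2 difference of -0.15 did not pass the test (exact permutation test, p = 0.34). These 3 ratios were the ones tested. Without mSC replicate 4 the log2 differences were 1.29 for Sbf2 to Sbf1, 1.06 for Mtmr2 to Sbf1 and -0.23 for Mtmr2 to Sbf2, and the exact permutation test of 3 libraries against 4 cannot go below p = 0.0571. Per kilobase of exon the mean ratio of Sbf2 to Sbf1 was 1.17 in mSC and 0.442 in nmSC, so which partner is the more abundant per length depends on the gate, while with the reads alone it was Sbf2 in every mSC library and Sbf1 in 3 of the 4 nmSC libraries.

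**Figure D5:**
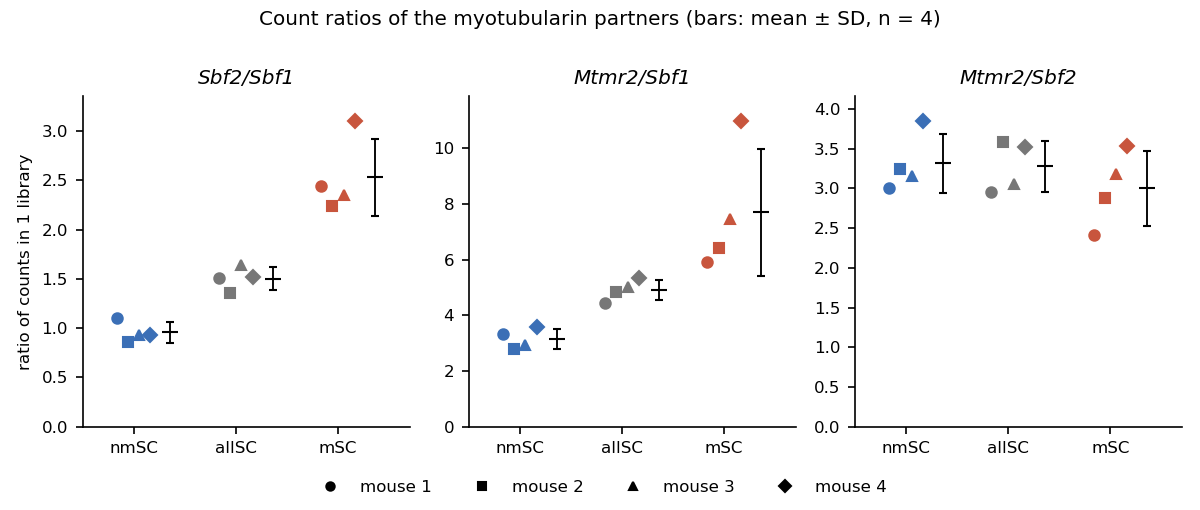
Ratio of the counts of 2 genes within each library for Sbf2 to Sbf1, Mtmr2 to Sbf1 and Mtmr2 to Sbf2, by gate (marker shape: mouse), with mean ± SD. The first 2 ratios rise from nmSC through allSC to mSC without overlap between gates, and the third lies between 2.42 and 3.85 in all libraries.

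The other genes of the same pathways were read from lists, each of which is described by its count and its median beside the median of -0.16 for all tested genes. All list counts depend on the scaling, and those with total counts alone are therefore given too. They are to be read against all tested genes, of which 20.4% were higher and 20.1% lower with TMM, and 7.79% and 55.9% with total counts alone. Of 11 other genes of the myotubularin family, to which Mtmr2 belongs, 2 (18.2%) were higher in mSC, near the share of all tested genes, and none was lower, with a median log2 fold change of 0.18. They were Mtmr6, at 0.73 ± 0.18 (SE, adjusted p = 0.0031, edgeR), and Mtm1, at 0.58 ± 0.21 (adjusted p = 0.033). Both catalyse the same reaction as Mtmr2, and with total counts alone neither was called while 3 others of the family were lower. Of 9 genes that make or remove the lipids on which Mtmr2 and Fig4 act, 4 (44.4%) were higher and none lower, with a median of 0.01 and the largest difference in Becn1, a subunit of a lipid kinase complex (0.64 ± 0.12, SE). The partners of Fig4 were among them, chosen for mention after their values were seen, with Vac14 at 0.54 ± 0.13 (adjusted p = 0.0022, edgeR) and Pikfyve at 0.42 ± 0.14 (adjusted p = 0.025). With total counts alone none of the 9 was higher and 5 (55.6%) were lower, again near the share of all tested genes.

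Of 13 genes of endosomes and of the sorting of their cargo, the compartments of Sh3tc2 and Litaf, 9 (69.2%) were higher in mSC and 1 was lower, with a median log2 fold change of 0.60. The largest rise was that of Rab4a, a GTPase of recycling endosomes, from 31.0 CPM in nmSC to 74.5 CPM in mSC (1.26 ± 0.16, SE, adjusted p = 3.1e-06, edgeR). Nedd4 was lower, at -0.34 ± 0.12 (adjusted p = 0.037). The counts with total counts alone were 2 higher and 3 lower. Cdc42, the GTPase that frabin activates, rose from 765 CPM in nmSC to 1774 CPM in mSC (1.21 ± 0.12, SE, adjusted p = 1.8e-07, edgeR) and was still called higher with total counts alone, whereas Fgd4 itself was not called. Kif13b, a motor protein that carries membrane cargo, rose from 24.9 CPM in nmSC to 101 CPM in mSC (2.03 ± 0.15, SE, adjusted p = 1.8e-09, edgeR), also with total counts alone. Of 8 genes of mitochondrial division and fusion, 7 (87.5%) were higher and none lower, with a median of 0.54 and the largest difference in Miga1, which promotes fusion (0.98 ± 0.17, SE). With total counts alone 2 were higher and none lower, and in no scaling was one of these 8 called lower.

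The closest relatives of the 10 genes gave another picture. Of 13 paralogues, 3 (23.1%) were higher and 3 lower in mSC, near the shares of all tested genes, and their median log2 fold change of -0.60 was below that of all tested genes. Ndrg2 was lower in mSC, at 41.3 CPM against 105 CPM in nmSC (-1.36 ± 0.15, SE, adjusted p = 7.3e-07, edgeR), where Ndrg1 was higher. Arhgef10l was lower, at 27.7 CPM against 99.1 CPM (-1.83 ± 0.18, adjusted p = 1.1e-07), where Arhgef10 was higher. Fgd5, a relative of Fgd4, was at 3.33 CPM in mSC and 54.8 CPM in nmSC (-4.02 ± 0.19, adjusted p = 5.7e-12). Cdip1, a relative of Litaf, was higher at 0.84 ± 0.12 (adjusted p = 2.2e-05). These 4 genes kept their direction and their call with total counts alone, where 1 of the 13 was higher and 8 (61.5%) were lower. The summed endothelial list was at 3.34 to 6.08 CPM in mSC and 6.32 to 11.1 CPM in nmSC. The part of other cell types in the fall of Fgd5 was not tested.

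Genes of the myelin sheath and of the axonal forms of the disease frame these differences. All 12 genes of a list of proteins of compact myelin, other proteins of the myelin sheath and the regulator Egr2 were higher in mSC, with a median log2 fold change of 2.26 and the largest difference in Pmp22 (3.61 ± 0.14, SE). Only Ndrg1 of the 10 genes, at 2.28, reached that median. With total counts alone Egr2 was not called and the other 11 were. Of 24 tested genes of axonal forms of the disease, 9 (37.5%) were higher and none lower, with a median of 0.27, and the largest difference was that of Mme, a peptidase of the cell surface, from 28.3 CPM in nmSC to 951 CPM in mSC (5.07 ± 0.21, SE). These numbers became 5 higher and 9 lower with total counts alone. The median of the 10 genes, 0.52, lay between those of the myelin and the axonal list.

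Over the 12 libraries, the genes with a pattern most like that of Ndrg1 were Mag, P2ry2 and Sptlc2, each with a Pearson correlation of 0.998 across log2 CPM, and their log2 fold changes from nmSC to mSC were 2.001, 2.03 and 2.01. For Sbf2 they were Fitm2, Mtus1 and Zkscan16, with correlations of 0.987, 0.987 and 0.983 and log2 fold changes of 0.96, 1.51 and 1.73. These were the highest of 9400 genes with at least 10 CPM, and the 12 libraries share their gates. Among the 10 genes, Mtmr2 and Ndrg1 had a correlation of 0.97 over the 12 libraries, Sh3tc2 and Arhgef10 one of 0.95, and Mtmr2 and Sbf1 one of -0.29. When the mean of the gate was subtracted, Sbf1 with Sh3tc2 and Sbf1 with Arhgef10 had correlations of 0.97 and 0.96. Without mSC replicate 4 these were 0.83 and 0.80. Such values were then not particular to these pairs. Sh3tc2 with Ndrg1 had 0.95, Litaf with Ndrg1 0.90 and Sbf1 with Ndrg1 0.82, while Fgd4 with Arhgef10 had -0.15. The libraries of a gate also differ in length and GC trends, and the part of these trends in the correlations was not tested.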

How the data were processed

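The authors prepared Smart-Seq2 and Nextera XT libraries without molecular identifiers, trimmed the reads and aligned them with STAR (version 2.6.1c in the submitters' notes). The deposited values are raw counts per gene from featureCounts. The submitters' notes name the mouse build GRCm38.p5, the methods of the study a human build, and the identifiers are those of mouse. How the counting treated strand, overlapping genes and reads with several matches is not given in the sources used here, and reads of close paralogues may be split between them.

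From the deposited counts, genes were filtered with the expression filter of edgeR 4.0.16 (R 4.3.3) by gate, TMM factors were computed on the kept genes, and a quasi-likelihood fit of the 12 libraries tested each pair of gates, with an adjusted p threshold of 0.05. CPM and RPKM use the TMM-scaled totals. Standard errors of fold changes were computed as the size of the log2 fold change divided by the square root of the F statistic of its test. Intervals are at a nominal 95% from these errors and the normal distribution. They make no allowance for the small number of libraries and may be too narrow. Ratios within a library had a count of 0.5 added and were tested by two-sided exact permutation of 4 against 4 libraries, and adjustment for the number of ratios changed no call. Symbols, positions, lengths and sequences are from GENCODE M21 (GRCm38), which matched 25664 of the 25700 identifiers. A floor of 3 counts corresponds to 0.177 to 0.367 CPM, for counting error only. No pair of libraries was a duplicate. A planned ratio of each gene to a reference gene is not reported here.

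The members and gene lists were chosen with earlier results of these data known. All 10 members are named. From each list the called genes with the largest rise and fall are named, with other called genes of at least 2-fold where needed, and for each called member of at least 2-fold the 3 most correlated genes of at least 10 CPM. Same-numbered libraries come from the same mouse, by the subject label. Their deviations from the gate means had correlations of -0.10 to 0.15, and a block for the mouse was an alternative. The paper states that the samples of each gate came from both sexes and clustered in pairs of the same sex. Which library came from which sex was not in the labels, so sex was not entered in the fits. Its part in the spread within a gate was not tested. On simulated counts for mSC against nmSC (10 draws, 17869 genes tested on average), the fit recovered 27.1% of changed genes of at least 30 CPM at 1.5-fold, 92.1% at 2-fold and 99.5% at 3-fold, and 6.14% of calls were false. Far fewer genes changed in these draws than were called in the data, and the draws held no trend with length or GC content, so these rates may differ from those of the data. The alternatives were 3 other scalings, the Wald test of DESeq2 1.42.0, no filter, only the gates compared, the block, an added count of 5, the longest transcript for RPKM, and leaving out each library in turn.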

Additional observations from a re-analysis of the deposited data

Results flagged for a closer look

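In mSC replicate 4, Fig4 was at 48.4 CPM where the other mSC libraries were between 60.8 and 61.5 CPM, Sh3tc2 was at 116 CPM where they were between 292 and 319 CPM, and Arhgef10 was at 87.9 CPM where they were between 177 and 188 CPM. Each gap between this library and its nearest neighbour was large for a group of 4 against the whole range of the group (Dixon's test at the 95% level). Such gaps appeared in 3 of 30 groups of 4 libraries (10 genes in 3 gates), where chance alone gives about 1 in 20, and the 3 groups share 1 library. The trend of this library with transcript length is given beside the results, and its part in these values was not tested.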

How the results depend on the processing

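Between mSC and nmSC, the number of genes called (5) stayed within 1.5 times in every alternative run, but which genes were called did not. Leaving out 1 library at a time gave 4 to 7, where 6174 to 7991 of all tested genes were called, against 7540 in the main fit. The single values that changed sign and were called in the new direction were 3, by construction of the scaling. They were Litaf at -0.52 and Fgd4 at -0.39 with total counts alone, and Litaf at -0.32 with total counts without the 50 top genes. Changes of sign without a call are not in this number. Fgd4 was at -0.19 with total counts without the 50 top genes. Fig4 was at -0.15 in the lowest of 16 settings. Litaf was at -0.05 in the lowest of the fits that left out 1 library. Between mSC and allSC (3 called), entering only the 2 gates gave 1, and leaving out 1 library gave 1 to 5. Over all tested genes these fits called 2740 and 2205 to 4204 genes, against 3266 in the main fit. Between allSC and nmSC (3 called), total counts alone gave 1, entering only the 2 gates gave 5, and leaving out 1 library gave 3 in each case. Over all tested genes the calls were 2938 (744 higher in allSC), 2899 and 1345 to 1700, against 1929 in the main fit. The place of allSC between the gates moved from 0.53 to 0.81 with total counts alone. Pairing of libraries by mouse (the replicate block) took Sh3tc2 over the threshold (adjusted p = 0.053, edgeR) and brought Fig4 under it (log2 fold change 0.41, adjusted p = 0.048), and changed no other call of edgeR among the 10 genes. For the ratios, 2 among the partners passed in the main test, and the block of mouse gave 0, because 4 pairs allow no p under 0.125. Leaving out 1 library gave 0 too, because 3 against 4 allow no p under 0.0571. Levels per length moved by more than the spread between libraries for 7 of the 10 genes when the longest transcript replaced the union of exons. A change near 1.5-fold can be missed, although Sbf2 and Mtmr2 were called at 1.51-fold and 1.49-fold between allSC and nmSC. The reads of Gdap1 lie above the floor of 3 counts in every library, but they are few, so a moderate change is difficult to detect.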
